A study of Mus musculus with 2 samples.

Results

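The distal end of mouse chromosome 4 carried 1618 regions enriched for phosphorylated HLXB9 in the deposited peak list, out of 5740 on the whole chromosome and 83676 in the genome. A peak was counted as distal when its midpoint lay at position 128000000 or beyond in the mouse build mm9, and the remaining 4122 peaks of the chromosome formed the comparison. This boundary was selected on the widths of the weak peaks, at the position where they differed most in these same data, so widths on its 2 sides are a description and carry no test. The peaks came from MIN6-4N cells, a mouse insulinoma line, transfected with a pcDNA3.1-myc-his-HLXB9 plasmid and harvested 48 hours later. One library was made from chromatin immunoprecipitated with anti-HB9PO4, an antibody against the phosphorylated factor, and 1 input library from chromatin with no antibody. Both libraries came from transfected cells of this 1 line. No untransfected cells or control antibody were analysed here, and the specificity of the peaks for phosphorylated HLXB9 was not tested. With 1 library per group there is no replicate error and no test. Tag numbers are unknown, and with them the depth behind a peak.

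HLXB9 (HB9, MNX1) is a DNA-binding homeodomain protein needed for the development of pancreatic β-cells and motor neurons, and it can be modified by phosphorylation. In ChIP-seq, a peak is a stretch where sequenced fragments from the immunoprecipitate pile up beyond a background. Its width is the length over which the pile-up stays above the caller's limit, and its score expresses how improbable the pile-up is under the background. The distal end of mouse chromosome 4 corresponds to the end of the short arm of human chromosome 1. Peaks were not assigned to genes, and no sequence of a peak was read, because no mm9 annotation or sequence was used here.

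Distal peaks were wider than those of the rest of the chromosome at each width percentile compared, though the narrowest distal peak, of 220 bp, was below the 260 bp of the narrowest other peak. Their median width was 916.5 bp, with an interquartile range across peaks of 678.25 to 1241.75 bp, against 617.5 bp (477 to 812 bp) in the rest. The 10th percentile was 521.7 bp against 401 bp and the 90th percentile 1642 bp against 1119 bp, so that distal widths were between 1.30 and 1.53 times those of the rest at each of 5 percentiles. Peaks narrower than 500 bp made up 8.03% of the distal set (130 peaks, Wilson 95% interval 6.81% to 9.46%), 29.3% of the rest and 25.1% of peaks on the other autosomes. A width of at least 2 kb was reached by 69 distal peaks, or 4.26% (3.38% to 5.36%), and by 26 peaks, or 0.631%, in the rest, where 1.74% of the whole list did so. These widths belong to the measure that placed the boundary. Intervals here and below reflect counting error alone, with each peak taken as independent.

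Width rose and fell along the chromosome, and the boundary did not separate narrow from wide windows completely. Of the 27 complete distal windows of 1 Mb, the lowest median width was 447 bp, the middle one 895 bp and the highest 1118 bp. Over the 124 complete windows of the rest these values were 448, 586.75 and 968.5 bp. A window median of at least 800 bp was found in 20 distal windows and in 11 of the rest, and 6 of those 11 lay in the 14 Mb before the boundary. The last window before the boundary held 37 peaks with a median width of 778 bp, and the first one beyond it (128000001 to 129000000) held 81 with a median of 949 bp. The peaks next to the boundary were all weak. The 3 before it (chr4:127885227-127886230, chr4:127920122-127920837 and chr4:127940992-127942244) were 1004, 716 and 1253 bp wide with scores of 34.6, 35.94 and 34.07. The 3 beyond it (chr4:128013231-128014012, chr4:128025164-128025746 and chr4:128025836-128026779) were 782, 583 and 944 bp wide with scores of 36.08, 31.25 and 34.59. Between the windows on either side of the boundary, the number of peaks changed by a larger factor than their median width.

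**Figure D1:**
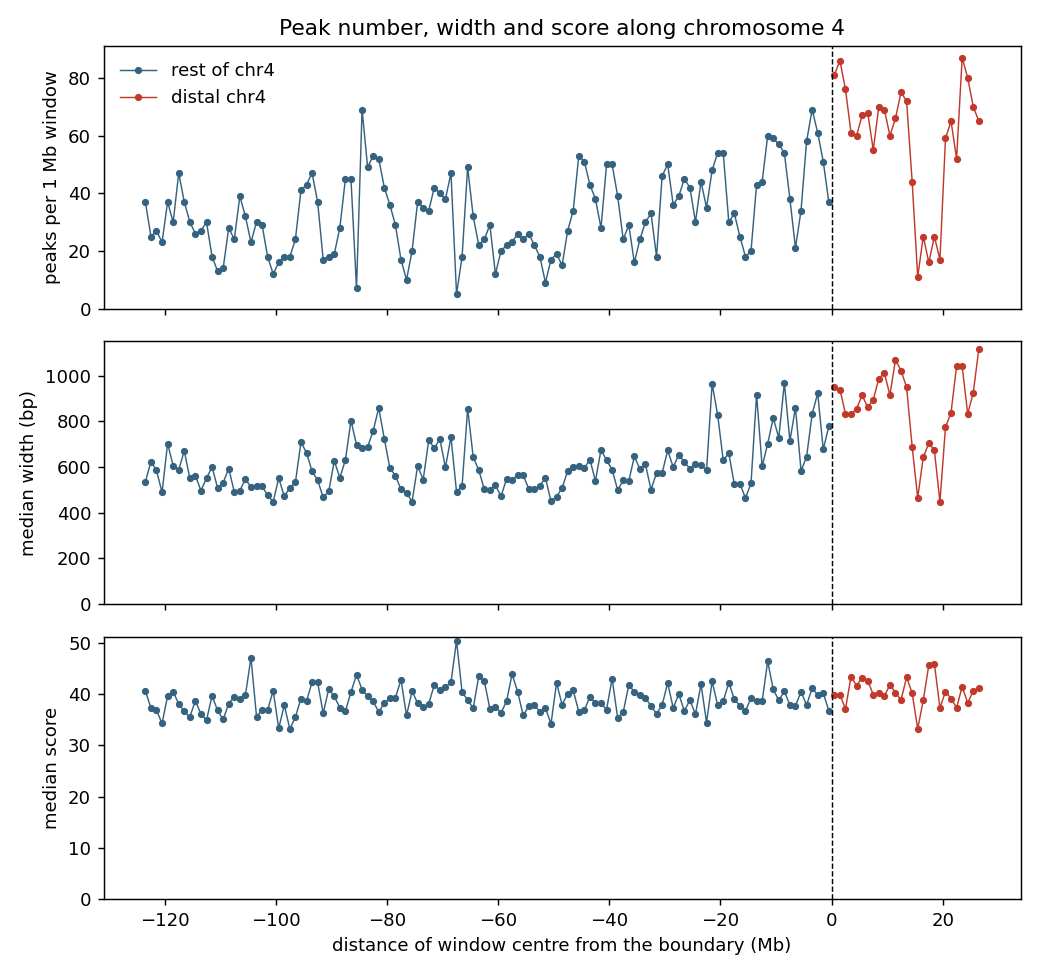
Peaks per 1 Mb window (top), median peak width in bp (middle) and median score (bottom) in each complete window of chromosome 4, against the distance of the window's centre from the boundary in Mb (negative towards the centromere). Red points are the 27 distal windows and blue points the 124 others; number and width are high in most distal windows and low in a stretch from 14 to 20 Mb beyond the boundary, while the median score stays between 33.1 and 50.31 throughout.

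Peak density was high over most of the distal end. There were 58.6 peaks per Mb over 27.6 Mb (exact Poisson 95% interval 55.7 to 61.5), against 33.0 per Mb (32.0 to 34.0) over the other 124.9 Mb, a ratio of 1.77. The counts of windows varied more than a Poisson law allows, with a variance 8.06 times the mean in the distal windows and 5.88 times in the rest, so these intervals are too narrow. Distal windows held from 11 to 87 peaks with a median of 65, and windows of the rest held from 5 to 69 with a median of 30. In the distal set 9 windows held 70 peaks or more, and 0 did in the rest of chromosome 4. With more and wider peaks, the distal end had 5.97% of its length covered, against 2.31% in the rest. It made up 18.1% of the chromosome's length between first and last peak, 28.2% of its peaks and 36.4% of its covered length. In 14 of the 27 distal windows the cover was above that of all 124 other windows.

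A pair of dense blocks with a sparse stretch between them made up the distal end. The sparse stretch was taken as the run of distal windows with fewer than 50 peaks, a limit chosen after the window counts were seen. In the first dense block (128000001 to 142000000), 14 windows held 55 to 86 peaks each, at 69.0 peaks per Mb, a median width of 942.5 bp and a cover of 7.21%. In the sparse stretch (142000001 to 148000000), 6 windows held 11 to 44 peaks, at 23.0 per Mb (19.3 to 27.2), a median width of 609.5 bp and a cover of 1.68%. From 148000001 to the last peak the values returned to 67.4 peaks per Mb, 943.5 bp and 7.06%. The median widths of the dense blocks thus differed by 1 bp, whereas the sparse stretch, though distal by rule, had a median near the 617.5 bp of the rest of the chromosome. The median score did not follow: it was 40.68 in the first dense block, 41.18 in the sparse stretch and 39.93 in the last block. Of the 69 distal peaks of at least 2 kb, 43 lay in the first dense block, 1 in the sparse stretch and 25 in the last block. The 28 peaks with a score of at least 100 fell 20, 1 and 7.

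The densest and emptiest windows lay within these blocks. The window from 151000001 to 152000000 held 87 peaks with a median width of 1042 bp, 31 of them with a score of at least 50, and peaks covered 10.5% of it. The windows from 129000001 to 130000000 and from 128000001 to 129000000 followed with 86 and 81 peaks. The window from 143000001 to 144000000 held 11 peaks with a median width of 465 bp and a cover of 0.627%. Windows from 145000001 to 146000000 and from 147000001 to 148000000 held 16 and 17 peaks, with median widths of 705.5 and 447 bp. All of the 3 longest distal stretches without a peak were in the sparse part, and the longest measured 288 kb (145745549 to 146033671). The longest in the rest of the chromosome was 799 kb (76432658 to 77231412). These stretches may include assembly gaps, which were not masked.

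Distal scores were only slightly above those of the rest. Scores are the authors' own and describe ranks within this list; a score divided by 10 was read as the negative log10 of a p-value. The distal median was 40.45 (interquartile range 34.18 to 52.85) and that of the rest 38.69 (33.57 to 48.63). Among distal peaks 466 had a score of 50 or more (a p-value of 1e-05 or less), or 28.8% (Wilson 95% interval 26.6% to 31.1%), against 23.3% (22.0% to 24.6%) in the rest and 24.1% in the whole list. Scores of 100 or more were found in 28 distal peaks, or 1.73% (1.20% to 2.49%), against 1.67% (1.32% to 2.11%) in the rest and 1.66% in the whole list. These last shares could not be told apart at this number of peaks. No distal peak scored 200 or more, and the Wilson 95% interval for 0 of 1618 reaches up to 0.237%. The 6 such peaks in the rest were 0.146% of it, a share below that limit.

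Distal peaks were wider at each score. In the class from 30 to 40, 793 distal peaks had a median of 824 bp, 1.48 times that of the rest. From 40 to 50 the medians were 898 and 645 bp, a ratio of 1.39. From 50 to 100 they were 1067.5 and 740 bp, a ratio of 1.44. In the class from 100 to 200, which held 28 distal peaks and 63 others, they were 1814 and 1224 bp, again a ratio of 1.48. The weakest class is the one whose widths placed the boundary, so its ratio is fixed in part by that choice. Read the other way, the share of high scores among peaks of similar width was somewhat lower in the distal set. From 1 to 1.5 kb, 35.8% of 452 distal peaks reached a score of 50 (31.6% to 40.4%), against 42.8% of 458 in the rest (38.3% to 47.4%). From 1.5 to 2 kb these shares were 45.5% of 154 (37.8% to 53.3%) and 56.6% of 106 (47.1% to 65.6%). Both pairs of intervals overlapped. Among peaks of at least 2 kb the shares were 65.2% and 65.4%. The Spearman correlation of score and width across peaks was 0.28 in the distal set and 0.33 in the rest, given as a description over 1618 and 4122 peaks of the same libraries.

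**Figure D2:**
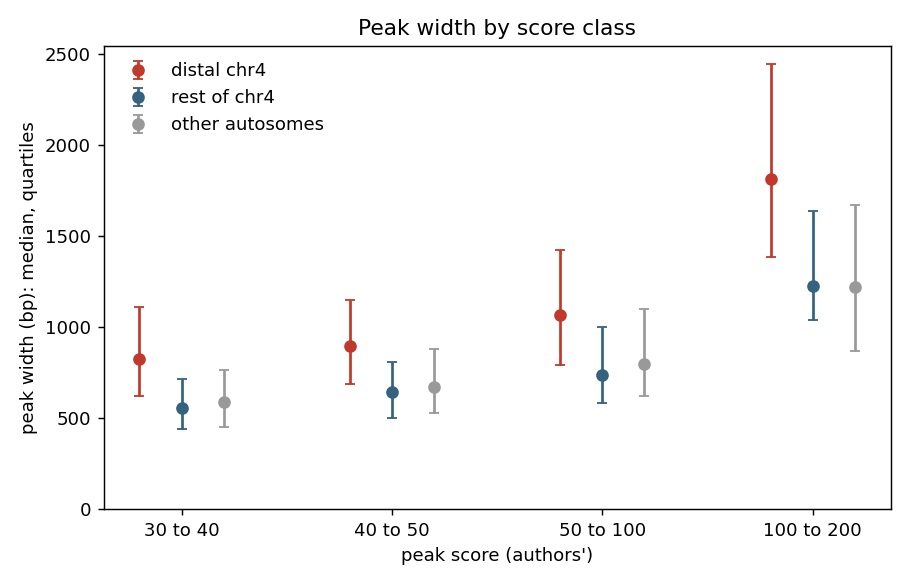
Peak width in bp (points are medians, bars run from the lower to the upper quartile across peaks) in 4 classes of the authors' score, for distal chromosome 4 (red), the rest of chromosome 4 (blue) and the other autosomes (grey). The distal median is the highest of the 3 in each class, from 824 bp at scores of 30 to 40 to 1814 bp at 100 to 200.

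The highest-scoring distal peaks did not rank among the very highest of the chromosome, while the widest did. A 2018 bp peak at chr4:135699369-135701386 scored 194.44, the highest distal value and the seventh on chromosome 4. It was followed by a 2291 bp peak at chr4:130807374-130809664 with a score of 176.96 and a 2470 bp peak at chr4:138629294-138631763 with a score of 159.52. Next came 2 peaks of ordinary width, 970 bp at chr4:139307183-139308152 (146.44) and 1017 bp at chr4:145053416-145054432 (134.51). The latter lay in the sparse stretch and had 5 other peaks within 100 kb, whereas the former had 26. The sixth to the tenth were at chr4:139360231-139361676 (131.63), chr4:131474640-131477616 (127.41), chr4:153454780-153456596 (127.37), chr4:139985448-139989430 (126.67) and chr4:131392112-131394085 (125.73). Of the 20 highest scores on chromosome 4, 3 were distal, and of the 20 widest peaks 17 were. The distal set held 28.2% of all peaks of the chromosome, and 28.9% of those with a score of 100 or more (20.8% to 38.6%). Width is the measure that placed the boundary, so a high count among the widest peaks is in part fixed by that choice.

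Width without a high score was seen among the widest regions. The widest peak of the chromosome, 3983 bp at chr4:139985448-139989430, scored 126.67, and the next, 3966 bp at chr4:146855062-146859027 in the sparse stretch, scored 99.41. The third, 3798 bp at chr4:136579551-136583348, scored 40.46, close to the distal median. The fourth and the fifth were 3579 bp at chr4:140104695-140108273 (55.71) and 3431 bp at chr4:149511853-149515283 (96.95). Of the 69 distal peaks of at least 2 kb, 45 had a score of at least 50 (65.2%, against 28.8% of all distal peaks) and 12 scored below 40. Among the 26 such peaks in the rest of the chromosome, 65.4% had a score of at least 50 and 4 scored below 40. The distal ones in complete windows were spread over 22 of the 27, with at most 9 in one window. In the rest of the chromosome 16 of 124 complete windows held a peak of at least 2 kb. Windows there also held fewer peaks of any width, with a median of 30 against 65.

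Neighbouring peaks were closer together in the distal end. The median distance from the end of a peak to the start of the next was 9.46 kb, against 17.2 kb in the rest, and from midpoint to midpoint it was 10.5 against 18.0 kb. Within 10 kb, a next peak followed 52.0% of distal peaks (841 of 1617, Wilson 95% interval 49.6% to 54.4%), against 34.6% (33.2% to 36.1%) in the rest and 36.3% in the whole list. Within 1 kb, one followed 9.15% (7.84% to 10.7%) against 5.53% (4.87% to 6.27%) in the rest and 5.66% on the other autosomes. Runs of peaks no more than 1 kb apart took up 286 distal peaks (17.7%), in 129 pairs, 8 runs of 3 and 1 run of 4. The run of 4 spanned 5.45 kb (chr4:129494779-129500224) with a highest score of 76.2. In the rest of the chromosome 443 peaks (10.7%) lay in such runs, and the share over the whole list is not given here.

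**Figure D3:**
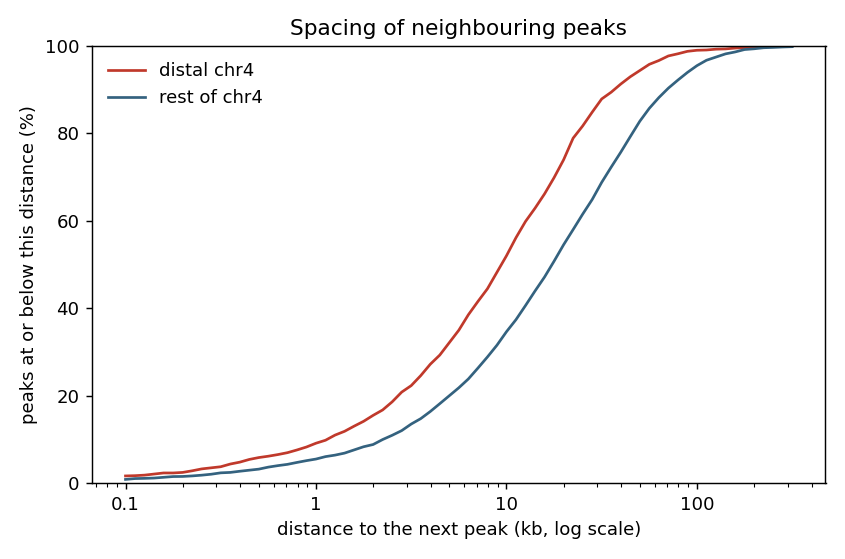
Share of peaks (%) whose next peak starts at or below a given distance (kb, log scale), for distal chromosome 4 (red) and the rest of the chromosome (blue). The distal curve lies to the left, with 52.0% against 34.6% of peaks followed within 10 kb.

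Distal peaks were wider than others both with and without a close neighbour. Distal peaks with a neighbour within 1 kb had a median width of 870 bp, those with the nearest one at 1 to 10 kb 938 bp, and those with none within 10 kb 902 bp. In the rest of the chromosome the medians were 664, 638 and 590 bp. The 14 distal peaks with no other peak within 50 kb had a lower median width of 425 bp, and the 188 such peaks in the rest had one of 537.5 bp.

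Since wider peaks occurred where peaks were dense, the distal end was compared with windows holding similar numbers of peaks. Windows were sorted into bins of 10 peaks, and the rest of the chromosome was weighted to the distal share of each bin. This left 885 distal peaks in 18 windows and 3025 peaks in 91 other windows of chromosome 4, because no other window reached the 70 peaks of the 9 densest distal ones. The bin of 60 to 69 peaks held 581 of these distal peaks, but only 4 windows and 259 peaks of the rest. The weighted values of the rest therefore lean mostly on those 4 windows. At matched number the median width was 885 bp against 729 bp, a ratio of 1.21, compared with 1.48 before matching. For peaks scoring from 30 to 40 the matched medians were 783 and 653 bp. Peaks of at least 2 kb were 3.62% and 2.21% with bins of 10 peaks, but 2.46% in both sets with windows of exactly equal peak number. With windows of 2 Mb they were 4.08% and 3.38%, and at a minimum score of 50 they were 7.82% and 2.95%. In the bins of 10 peaks, score and spacing lay closer together. Scores of 50 or more were held by 28.7% of distal peaks and 29.3% of the others, 46.6% and 49.2% were followed within 10 kb, and the median gap was 11.3 and 10.3 kb. With all peaks and 1 Mb windows, the distal share of scores of 50 or more was not above that of the rest. Nor was that of peaks followed within 10 kb. Within 1 kb, 8.14% of distal peaks and 7.58% of the others were followed. At a minimum score of 50, 19.7% of distal peaks and 19.3% of the others were followed within 10 kb. Spacing depends on peak number, so the matching itself brings the shares of close neighbours together. The widths, the measure that placed the boundary, still differed by the smaller ratio. That ratio depended on the windows: with windows of 2 Mb the medians were 898 and 832 bp, a ratio of 1.08.

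The width difference was not the same at every density. In windows with 10 to 19 peaks, 44 distal peaks had a median of 544.5 bp, against 506 bp in the rest, with 95% intervals (binomial order statistics) of 463 to 611 and 481 to 530 bp. With 20 to 29 peaks the medians were 650.5 and 540 bp (503 to 771 and 521 to 559 bp), and with 40 to 49 they were 689.5 bp in the single distal window and 670.5 bp in 20 others. With 50 to 59 peaks they were 892 bp in 3 windows (823 to 975 bp) and 689 bp in 14 (671 to 712 bp). With 60 to 69 they were 949 bp in 9 windows (904 to 983 bp) and 801 bp in 4 (740 to 846 bp). These widths again belong to the measure that placed the boundary. The intervals take each peak as independent and leave out the variation between windows, so they are too narrow and carry no test. For the densest distal windows only other autosomes gave a counterpart. With 70 to 79 peaks the medians were 951 bp in 5 distal windows and 844 bp in 47 elsewhere, and with 80 to 89 peaks they were 943.5 bp in 4 distal windows (900 to 979 bp) and 968 bp in 14 elsewhere (936 to 995 bp). The distal bin medians thus differed little from 60 peaks per window upwards, while those of the other autosomes rose from 784 bp at 60 to 69 peaks. The 4 distal windows with 80 or more peaks had medians from 833.5 to 1042 bp. With so few windows, level and rising distal widths cannot be told apart.

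**Figure D4:**
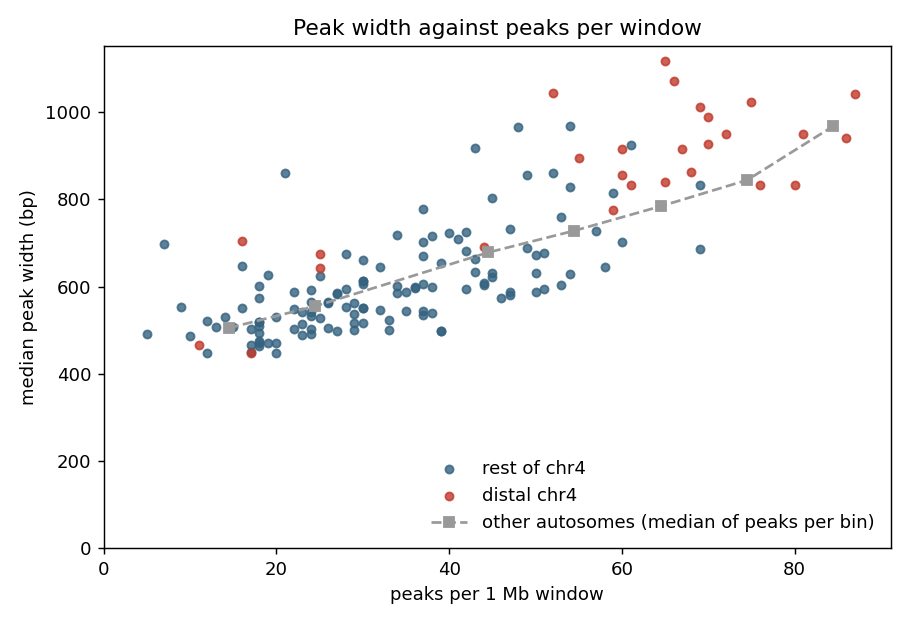
Median peak width (bp) of each complete 1 Mb window of chromosome 4 against the number of peaks in it, for distal windows (red) and the rest (blue), with the median over peaks of the other autosomes in bins of 10 peaks (grey squares). Most distal windows with 50 to 79 peaks lie above the grey line, and those with 80 or more lie on both sides of it.

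Within the distal end, the relation of window width to peak number was weaker without the sparse stretch. Over the 27 windows Pearson's r was 0.80 (Spearman 0.61), and over the 21 windows outside that stretch Pearson's r was 0.13. The stretch was defined by low peak numbers, so leaving it out narrows the range of peak number and by itself lowers r. Whether the relation rests on that stretch can therefore not be told from these values. In these 21 windows the median width ranged from 775 to 1118 bp, above the 447 to 705.5 bp of the 6 sparse ones. Over the 124 windows of the rest, where no windows were left out, Pearson's r was 0.65 (Spearman 0.69). Peak number and median score had an r of 0.06 in the distal windows and 0.13 in the rest. All windows share the same 2 libraries, and these values are descriptions.

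The stretch just before the boundary was intermediate at like density. Among windows with 50 to 69 peaks, 12 distal ones had a median peak width of 934 bp (893 to 969 bp), 8 in the 14 Mb before the boundary (114000001 to 128000000) had 778 bp (734 to 813 bp), and 10 further before it had 669 bp (639 to 687 bp). On the other autosomes 319 such windows had 744 bp. Window medians ranged from 775 to 1118 bp in the distal set, from 644.5 to 968.5 bp just before the boundary and from 588.5 to 859.5 bp further before, so that single windows overlapped. The shares of scores of at least 50 were 29.6% (26.4% to 33.0%), 27.9% (24.1% to 32.2%) and 23.3% (19.9% to 27.1%). Peak number was not fully matched, with a median of 63, 58.5 and 52.5 peaks per window. The length of 14 Mb, that of the first dense block, was chosen after the values were seen. Taken as a whole, these 14 Mb thus had wider peaks in this range of peak number than the windows further before. Over all 1 Mb windows of the stretch, median widths showed no steady rise towards the boundary, with 918 bp in the first and 778 bp in the last. Of the 26 peaks of at least 2 kb in the rest of the chromosome, 13 lay in these 14 Mb.

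Similar values were found at some other chromosome ends. The last 27.6 Mb before the last peak was taken from each of the 19 autosomes, and that of chromosome 4 is the distal set itself. The chromosome 4 stretch starts where widths differed most in these data, while the others were cut to its length, which favours a high rank in width. Its median width ranked second, below the 924 bp of chromosome 1 and above the 838 bp of chromosome 15 and the 828.5 bp of chromosome 11. Its 58.6 peaks per Mb also ranked second, after 62.4 on chromosome 11 and before 57.3 on chromosome 15, and its cover of 5.97% was next to the 5.99% of chromosome 11. The median over the other ends was 656 bp in width, 40.1 peaks per Mb and 2.81% in cover. The end of chromosome 1 had the widest peaks with only 33.0 peaks per Mb, so that wide peaks and high density did not go together everywhere.

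**Figure D5:**
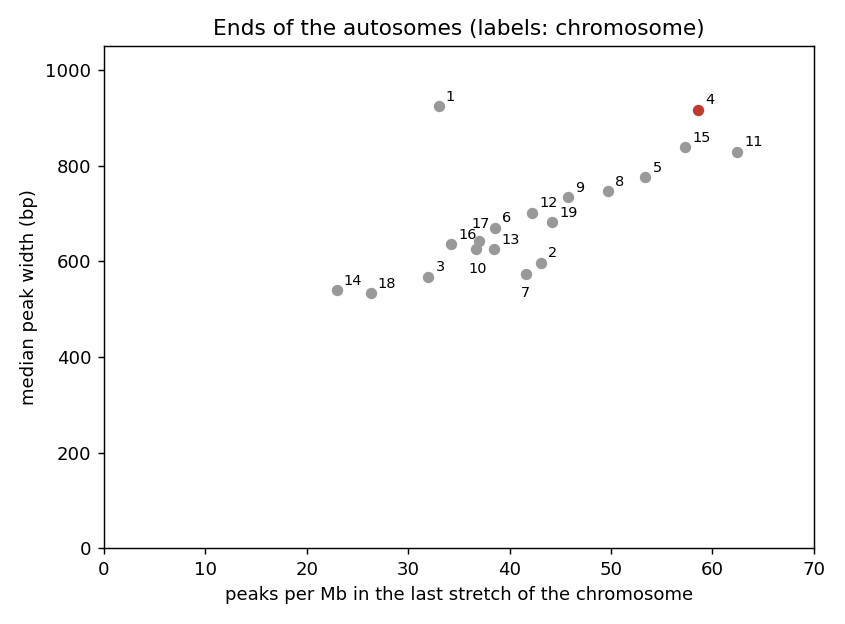
Median peak width (bp) against peaks per Mb in the last 27.6 Mb of each autosome, with the chromosome number beside each point. Chromosome 4 (red, 916.5 bp and 58.6 peaks per Mb) lies at the upper right with chromosomes 15 and 11, and chromosome 1 (924 bp, 33.0 peaks per Mb) lies apart.

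Other regions with wide peaks, chromosome 7 before 58 Mb and chromosome 15 beyond 72 Mb, were compared at matched peaks per window. Both had likewise been placed by width in these data. In the matched bins, 22 distal windows of chromosome 4 had a median of 934 bp and 27 windows of chromosome 15 one of 937 bp. The shares of scores of at least 50 were 28.8% and 28.5%, and those of peaks followed within 10 kb 53.9% and 54.9%. Over all peaks, chromosome 7 before 58 Mb had a median width of 914 bp, next to 916.5 bp in the distal set, while the share of peaks of 2 kb or more was 12.5% against 4.26%. In the class of scores from 30 to 40 its median was 795 bp, against 824 bp, and from 100 to 200 it was 1764.5 against 1814 bp. The order was the other way in between, with 915.5 against 898 bp from 40 to 50 and 1117 against 1067.5 bp from 50 to 100. Weighted to the distal peaks per window, the chromosome 7 median was 1173 bp against 915 bp, and peaks of at least 2 kb were 20.5% against 4.05%. This used 1353 peaks in 32 windows of a region with 28.7 peaks per Mb, against 58.6 in the distal end. The weighting leans on the denser of these windows, so the weighted values do not describe the whole region. Against all other autosomes the matched medians were 915 and 795 bp, a ratio of 1.15, and 28.6% and 28.3% of peaks had a score of at least 50. Peaks of at least 2 kb were then 4.05% of the distal set and 4.25% of the others.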

How the data were processed

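ChIP-seq of MIN6-4N cells gave 1 immunoprecipitated and 1 input library of 36 bp reads, per the labels' protocols and the series' design text. The authors deposited 1 peak list. Per the submitters' processing notes, the caller was MACS (written 1.42) and the build mm9. For the aligner, the read filters and the tag numbers, nothing is stated in the labels used. That the list sets ChIP against input was inferred from the 1 library of each. The score deposited by the authors has no header. Its lowest value, 30, was read as a p-value limit of 1e-03, which is permissive and lets chance regions in. Peaks did not overlap.

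Widths, scores, gaps and counts per 1 Mb window (by midpoint, without windows holding a chromosome's first or last peak) were computed here with Python 3.11.15, numpy 2.4.6, pandas 2.3.3 and scipy 1.17.1, and plotted with matplotlib 3.10.9. Counts have exact Poisson, shares Wilson and medians binomial order-statistic intervals at 95%. Matching was checked on simulated data. Positions are 1-based. The named peaks are the 10 highest-scoring, the 5 widest and the 3 on each side of the boundary; the 3 densest and 3 emptiest windows, the longest run and the longest gap are also named. The members and lists were chosen with earlier results of these data known. Gene, promoter and motif results were not run: the gene table used was for GRCm38.p6, where all 50 listed genes lie on chromosome 4, and positions were not carried between builds. The alternatives were a minimum score of 50, joining of peaks within 1 kb, other boundaries, other matching and, added after seeing the data, leaving out the sparse stretch.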

Additional observations from a re-analysis of the deposited data

How the results depend on the processing

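Before matching by peak number, the ratio of distal to other chromosome 4 values stayed above 1 for width, density, cover, peaks followed within 10 kb and scores of at least 50 under each alternative run; the last has no value at a minimum score of 50. Of 32 alternative values, including those at matched peak number, 19 stayed within the 95% counting interval of the reported ratio and 13 moved beyond it. At a minimum score of 50 the ratio of median widths was 1.44, of peaks per Mb 2.20, of peaks followed within 10 kb 1.89 and of cover 3.11. Joining peaks within 1 kb gave a width ratio of 1.54. With the boundary 8 Mb further on, the ratio was 1.54 for peaks per Mb, 1.38 for peaks followed within 10 kb and 2.17 for cover. Without the sparse stretch it was 2.07 for peaks per Mb and 3.10 for cover. At matched peak number the width ratio was 1.08 with 2 Mb windows, 1.15 at a minimum score of 50 and 1.17 with windows of equal peak number (11 distal, 15 other). The matched ratio of peaks followed within 10 kb was 0.946 as reported, 0.944 with 2 Mb windows and at equal peak number, and 1.02 at a minimum score of 50, and that of scores of at least 50 was 0.979 as reported, 1.01 with 2 Mb windows and 0.912 at equal peak number. The causes were not tested. No paired analysis was possible because there is 1 library per group, and for the same reason no library could be left out. Alternatives planned for sequence content and promoters were not run without mm9 sequence or annotation. Unknown tag numbers limit each statement on weak peaks: few peaks in a window do not show that it was unbound.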
